A study of Mus musculus with 18 samples.

Results

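Interferon-stimulated genes were followed in mouse macrophages held at low oxygen or starved, with or without the prolyl hydroxylase PHD3. The set held 41 genes chosen by name. Probes were assigned to them by matching the transcript accession of each probe to RefSeq mouse symbols, with Rigi matched under its older symbol Ddx58. Of the 41 genes, 39 had a probe, and all 39 were tested among the 20813 genes tested on the array. Mx1 and Mx2 had no matched probe and were not analysed here. Femur marrow was taken from C57BL/6J males at 8 weeks of age and its cells were differentiated for 7 days with macrophage colony stimulating factor, and 6 groups of 3 samples were hybridised to single-channel Agilent arrays. The groups were PHD3-/- and wild-type cells at an oxygen concentration labelled 1, PHD3-/- and wild-type cells at 20 that were starved, and PHD3-/- and wild-type cells at 20 with control feeding. The labels give no unit for oxygen. The sources used here do not give whether cells or mice were starved, nor which cells carried the PHD3 deletion. The design text names 3 mice per group, and nothing says which samples, if any, share a mouse, so p-values measure the spread between these samples.

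Cells release type I interferons, such as interferon beta, when sensors of foreign or misplaced nucleic acid are triggered. The interferon receptor then signals through JAK kinases to a complex that includes STAT2 and IRF9 and binds the interferon-stimulated response element (ISRE) in the promoters of its target genes, while interferon gamma acts through the gamma-activated site (GAS). Resting macrophages keep a part of this programme switched on through low, constant interferon signalling, and its products include RNA sensors, enzymes that degrade or block viral RNA, and GTPases that attack the vacuoles of intracellular microbes.

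The promoters of the members that the results turn on are shown because they carry the response element that defines the family. RefSeq promoter entries, 250 bases before to 50 bases after an annotated start site in GRCm38.p6, were matched for 31 of the 41 genes, Rigi again as Ddx58. Dhx58, Zbp1, Mx1, Mx2, Oas2, Usp18, Iigp1, Parp9, Parp14 and Rtp4 were not among them. The ISRE core was searched on both strands as GAAANNGAAA. It is capitalised below, on the gene's own strand from 5′ to 3′, where it appears as TTTCNNTTTC if it lies on the opposite strand and where overlapping cores run together. All stretches lie upstream of the start site.
Gbp2 (plus strand, chr3:142620574-142620643): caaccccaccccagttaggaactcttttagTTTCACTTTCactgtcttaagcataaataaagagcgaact
Gbp3 (plus strand, chr3:142559969-142560043): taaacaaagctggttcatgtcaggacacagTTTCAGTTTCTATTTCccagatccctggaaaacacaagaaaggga
Gbp5 (plus strand, chr3:142496739-142496808): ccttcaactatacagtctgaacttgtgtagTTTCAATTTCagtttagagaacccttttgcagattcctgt
Rsad2 (minus strand, chr12:26456533-26456602): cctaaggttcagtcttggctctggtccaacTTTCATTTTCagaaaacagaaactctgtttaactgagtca
Bst2 (minus strand, chr8:71537557-71537632): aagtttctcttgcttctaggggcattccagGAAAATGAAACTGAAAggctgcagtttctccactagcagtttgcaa
Oas1g (minus strand, chr5:120887614-120887661): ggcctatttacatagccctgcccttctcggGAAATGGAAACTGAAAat
Oas1a (minus strand, chr5:120907526-120907575): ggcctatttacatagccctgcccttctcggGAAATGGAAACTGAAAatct
The last of these was added after its values were seen, because Oas1a and Oas1g are paralogs that differed in their response. Over 116 bases aligned from the core without gaps, the promoters of Oas1a and Oas1g were identical at 106 (91.4%).

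The ISRE core was present in 18 of the 31 genes (58.1%), against 1079 of the 27025 genes whose promoters were searched (3.99%, or 3.44% of their 32851 promoters). The longer form, GAAANNGAAACT, which contains the core, was in 11 genes (35.5%), against 0.303% of all genes searched. The GAS motif TTCNNNGAA, which reads the same on both strands, was in 9 genes (29.0%), against 9.55%. It included the promoter of Irf1 and that of Isg20, shown with the motif in capitals.
Irf1 (plus strand, chr11:53769894-53769962): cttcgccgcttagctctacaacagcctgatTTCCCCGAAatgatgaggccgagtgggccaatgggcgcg
Isg20 (plus strand, chr7:78913321-78913389): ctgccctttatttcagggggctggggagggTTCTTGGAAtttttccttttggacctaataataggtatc
The core of the hypoxia response element, ACGTG on either strand, was in 3 genes (9.68%; Isg20, Oasl2 and Igtp), against 21.8%. In Bst2 the GAS motif overlapped an ISRE core, and neighbouring ISRE cores overlapped each other in Bst2, Gbp3, Irgm1, Isg15, Oas1a and Oas1g. A match is a run of letters and not a measured binding site.

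**Figure D1:**
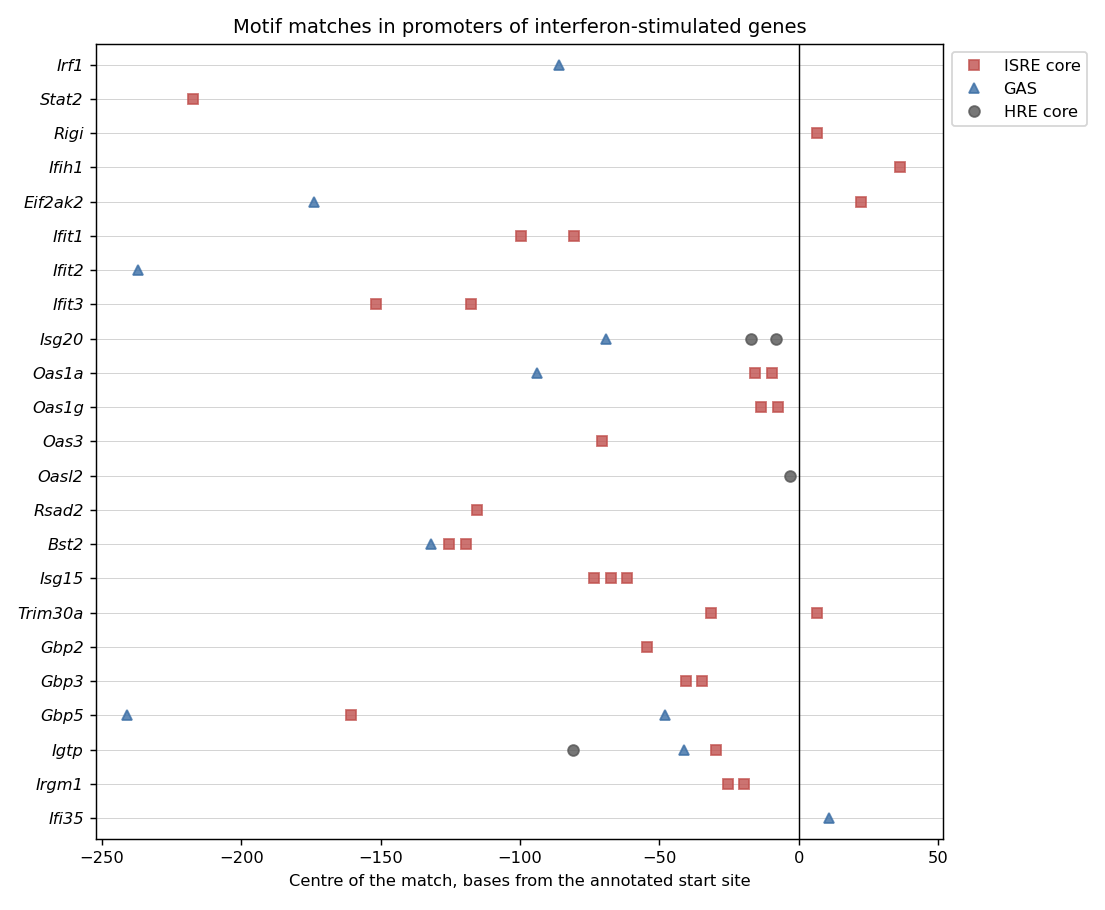
Positions of motif matches in the promoters of the 23 members that held any, as the centre of each match in bases from the annotated start site (vertical line). Red squares are ISRE cores, blue triangles GAS motifs and grey circles hypoxia response element cores, and most ISRE cores lie upstream of the start site.

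On the 20 arrays, spread over 5 slides, 56.1% to 65.4% of spots were well above background and none was saturated. The number of arrays limits the precision of every comparison. All values below are log2 signals from which the array's 75th percentile was subtracted, so that 0 marks that percentile. All 39 members were well above background in all 18 samples. Of 9 macrophage markers, 8 had a probe, and all 8, among them Adgre1, Cd14, Csf1r, Fcgr1, Itgam, Lyz2 and Mertk, were well above background in every sample. Of 14 T and NK cell markers with a probe, 6 (Cd3d, Cd3g, Cd8a, Eomes, Gzmb and Ncr1) were above background in no sample. Another 5 (Cd3e, Cd4, Lck, Nkg7 and Prf1) were well above background in all samples. Interferon gamma (Ifng), the product of such cells, was above background in 2 of 18 samples. Egln3, which encodes PHD3, read 2.84, 2.98 and 2.71 in the knockout samples at oxygen 1, -2.33, -2.29 and -2.61 in the starved knockout samples and -3.88, -3.76 and -4.20 in the knockout controls. The wild-type samples read 3.00, 2.87 and 2.83 at oxygen 1, -2.19, -2.35 and -2.36 when starved and -3.10, -3.51 and -3.77 in controls. The genotypes overlapped or lay close together in each condition, and knockout minus wild type was -0.054 ± 0.16 at oxygen 1, -0.11 ± 0.16 when starved and -0.49 ± 0.16 in controls (fit SE; limma adjusted p = 1.00 in each). The position of this probe relative to the deletion was not given, so the signal does not check the genotype, and knockout and wild type are used here as the labels give them.

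Low oxygen moved a minority of the interferon-stimulated genes, mostly upwards, and the members that rose in wild-type cells also rose in knockout cells. In knockout cells at oxygen 1, 14 of 39 members rose (35.9%) and 2 fell (5.13%) at a limma adjusted p under 0.05, against 21.4% of all genes tested that rose and 18.3% that fell. In wild-type cells 10 rose (25.6%) and 2 fell (5.13%), against 20.5% and 18.1% of all genes. The median member changed by 0.30 in knockout and 0.24 in wild-type cells, and the median of all genes by 0.031 and 0.034. The share of members that fell was below that of all genes in both genotypes. The share that rose was above it in knockout cells and near it in wild-type cells. In such bulk samples, fewer cells of a type and less RNA per cell cannot be told apart. The same 10 members rose in both genotypes: Irf1, Ifih1, Isg20, Oas1g, Oasl2, Rsad2, Cmpk2, Gbp2, Gbp3 and Rtp4. Interferon beta itself (Ifnb1) and Oasl1 fell in both. The interferon genes Ifna11 and Ifnk, outside the set, rose in both, as given below.

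**Figure D2:**
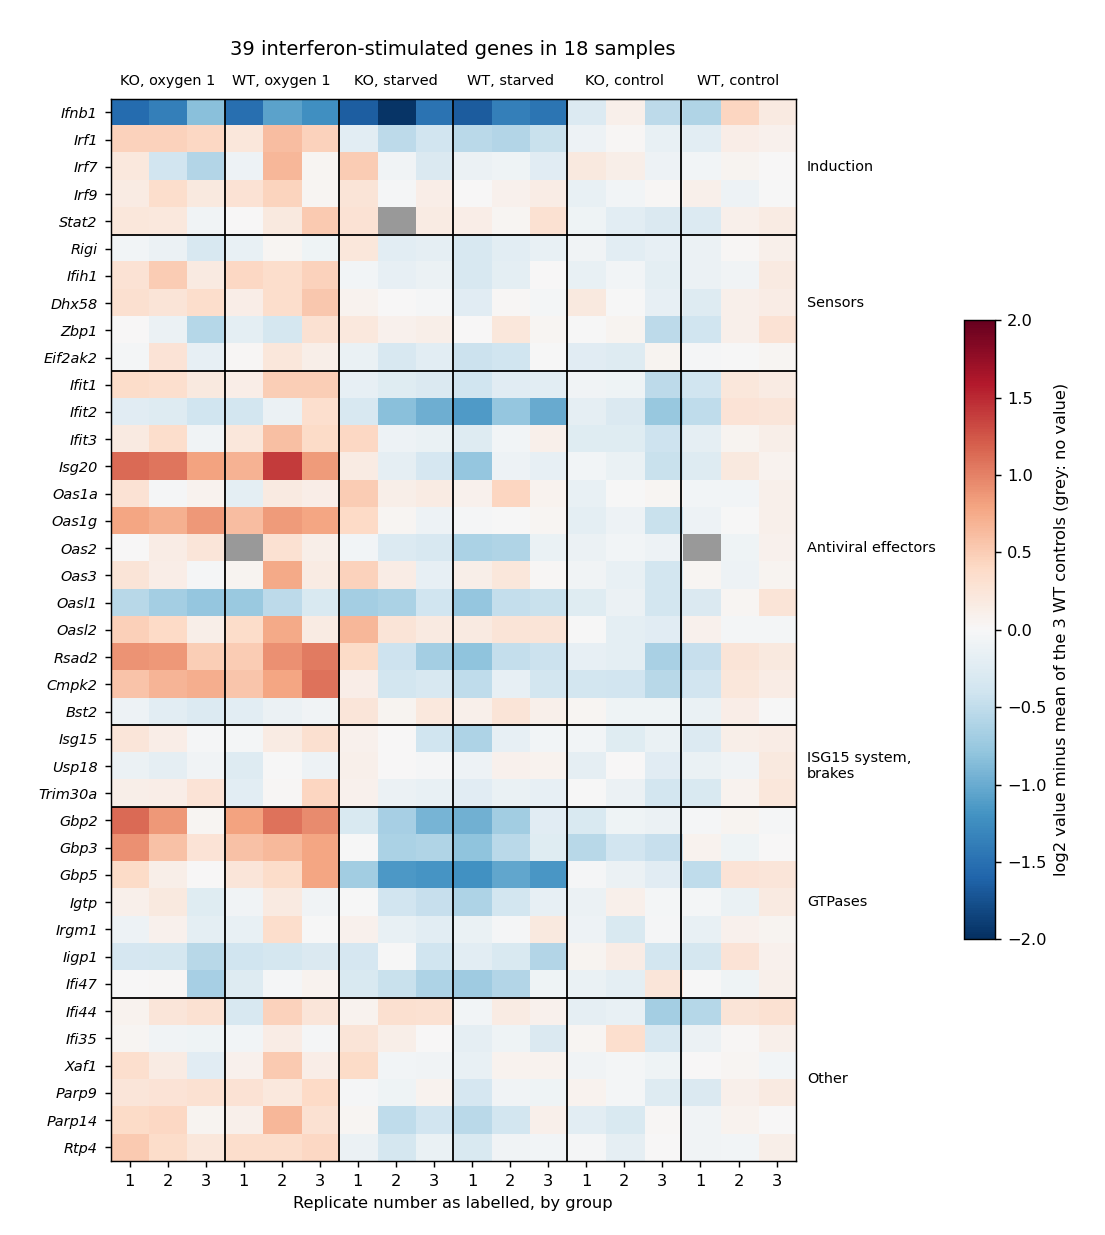
Each cell is the log2 value of 1 member in 1 sample minus the mean of the 3 wild-type controls (red higher, blue lower, grey no value), with members by role down the page and the 6 groups of 3 samples across it. Isg20, Oas1g, Rsad2, Cmpk2, Gbp2 and Gbp3 are red at oxygen 1 in both genotypes, Ifnb1 and Oasl1 are blue at oxygen 1 and when starved, and Gbp5 is blue when starved.

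Irf9, Ifit1, Ifit3 and Parp9 also passed the threshold in knockout cells, by 0.30, 0.52, 0.45 and 0.35, and did not in wild-type cells, where they read 0.26, 0.37, 0.40 and 0.30. The difference between the genotypes was itself tested and passed for no member. The count in knockout cells was 10 without replicate 1 and 10 without replicate 2 of the knockout samples at oxygen 1. The shares of all genes under these 2 omissions are not given here. Earlier processing of these data had found 3 samples to stand apart (wild-type control 1, knockout control 3 and starved wild-type sample 3). Without them 11 members rose and 3 fell in knockout cells, and 28.2% rose against 21.6% of all genes. In wild-type cells 7 then rose and 3 fell, and the share that rose, 17.9%, was below the 21.9% of all genes. Under a model-based background correction (normexp) of the median spot signal 17.9% of members rose in knockout and 15.4% in wild-type cells, against 10.1% and 9.40% of all genes. With slide as a fixed block 14 members rose and 1 fell in knockout cells (35.9% and 2.56%), against 23.5% and 21.0% of all genes. In wild-type cells 13 then rose and 2 fell (33.3% and 5.13%), against 20.9% and 18.7%. Within slides that held both groups, the median member differed by 0.18, 0.35 and 0.31 in knockout cells, and by 0.48 on the 1 slide with both wild-type groups.

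Starvation moved few members. In starved knockout cells 1 member rose (2.56%) and 2 fell (5.13%), against 7.13% and 6.38% of all genes tested. In starved wild-type cells none of 39 rose by limma, with 12 members (30.8%) in either direction at an unadjusted p under 0.05 against 23.8% of all genes, and 5 fell (12.8%), against 6.49% and 6.02% of all genes. The median member changed by 0.055 in knockout and by -0.19 in wild-type cells, and the median of all genes by 0.012 and 0.019. Ifnb1 and Gbp5 fell in both genotypes. Irf1, Ifit2 and Oasl1 passed in wild-type cells and not in knockout cells, and Oasl2 rose in knockout cells and did not pass in wild-type cells. The wild-type count was 2 when control 2 was left out and 3 when control 3 was, and it was 3 without starved sample 1 and 9 without starved sample 3. The shares of all genes under these omissions are not given here, so these shifts are not read as a trait of the members. Without the 3 samples that stood apart, 0 members rose and 2 fell in knockout cells (5.13%), against 5.84% and 5.28% of all genes. In wild-type cells 0 then rose and 7 fell (17.9%), against 6.30% and 4.80%. With slide as a fixed block the counts were 1 and 2 in knockout cells (2.56% and 5.13%), against 7.39% and 6.93% of all genes. They were 0 and 5 in wild-type cells (12.8% for the falls), against 6.96% and 6.56%. Within slides, the median member differed by 0.23, -0.060 and 0.016 in knockout cells and by -0.11, -0.22 and -0.21 in wild-type cells. The oxygen 1 and starved groups of a genotype were set against the same controls, so their changes are not independent of each other.

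**Figure D3:**
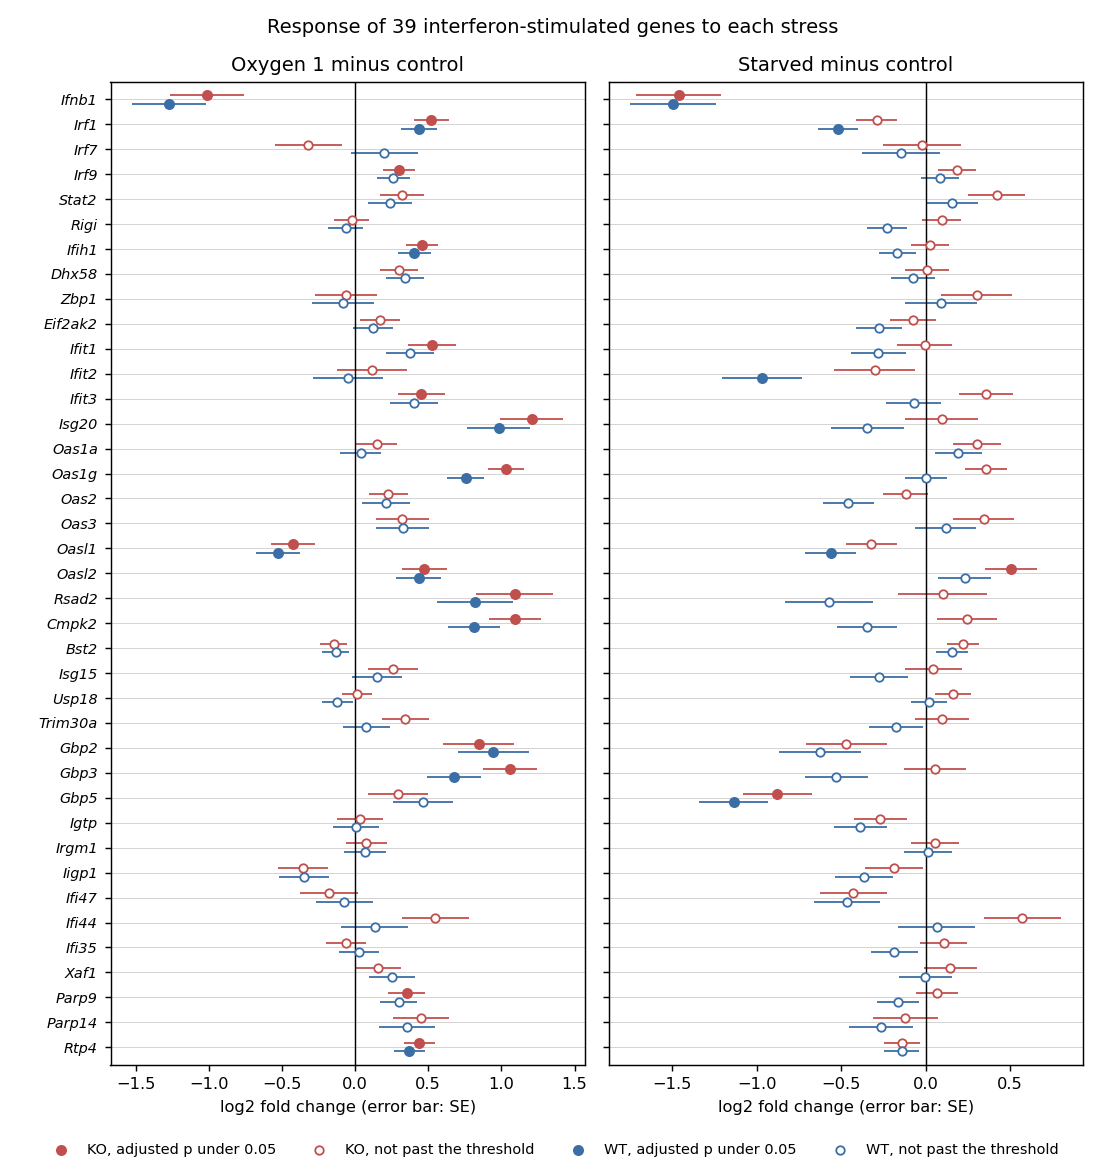
Log2 fold changes of the 39 members at oxygen 1 (left) and when starved (right), each against the controls of its genotype, with the standard error of the fit as the bar. Red points are knockout and blue points wild-type cells, and filled points passed an adjusted p of 0.05; at oxygen 1 the filled points lie mostly right of 0 and when starved mostly left of it.

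Among the 5 genes of interferon induction and its transcription factors, Ifnb1 fell under both stresses and Irf1 moved with the stress. Ifnb1 encodes interferon beta, a ligand of the type I response. It read -4.40, -4.24 and -3.70 in knockout cells and -4.38, -3.93 and -4.09 in wild-type cells at oxygen 1. In starved cells it read -4.52, -4.83 and -4.34 in the knockout and -4.53, -4.23 and -4.33 in the wild type. The controls read -3.14, -2.76 and -3.39 in the knockout and -3.47, -2.43 and -2.69 in the wild type. Every stressed sample thus lay below every control of its own genotype. The log2 fold change at oxygen 1 was -1.01 ± 0.25 in knockout (adjusted p = 0.0052) and -1.27 ± 0.25 in wild-type cells (0.00111). When starved it was -1.46 ± 0.25 in knockout (0.00124) and -1.50 ± 0.25 in wild-type cells (0.00105). This is a fall of 2.02-fold to 2.82-fold in the signal. The lowest signal well above background lay between -6.93 and -5.83 on the different arrays. Under the normexp correction Ifnb1 kept its direction and passed in none of the 4 comparisons, with adjusted p between 0.149 and 0.346, while it passed in all 4 when that correction was followed by quantile normalization.

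Irf1, a transcription factor that binds the ISRE and is induced most by interferon gamma, read 3.62, 3.63 and 3.57 in knockout and 3.39, 3.79 and 3.63 in wild-type cells at oxygen 1. Starved cells read 2.96, 2.64 and 2.79 in the knockout and 2.63, 2.59 and 2.72 in the wild type. The controls lay between, at 3.06, 3.19 and 3.01 in the knockout and 2.95, 3.29 and 3.26 in the wild type. At oxygen 1 it rose by 0.52 ± 0.12 in knockout (adjusted p = 0.0029) and by 0.44 ± 0.12 in wild-type cells (0.00976). When starved it changed by -0.29 in knockout cells, which did not pass (0.140), and by -0.52 ± 0.12 in wild-type cells (0.00936). That last call was lost when wild-type control 2 was left out (-0.46, adjusted p = 0.0504). Irf7, which amplifies interferon production, changed by -0.32 in knockout and 0.20 in wild-type cells at oxygen 1 and passed in neither. Stat2, a subunit of the complex that binds the ISRE, changed by 0.32 and 0.24 at oxygen 1 and passed in neither; 1 starved knockout sample had no value for it.

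Of the 5 nucleic acid sensors, 1 passed against controls, with a rise at oxygen 1 in both genotypes. That share (20%) was near the 21.4% of all genes that rose in knockout and the 20.5% in wild-type cells. Ifih1, which encodes the RNA sensor MDA5, read 2.39, 2.60 and 2.27 in knockout cells at oxygen 1, against 1.94, 2.05 and 1.90 in knockout controls. In wild-type cells it read 2.50, 2.44 and 2.56 at oxygen 1 against 1.98, 2.03 and 2.28 in controls. It rose by 0.46 ± 0.11 in knockout (adjusted p = 0.0044) and 0.40 ± 0.11 in wild-type cells (0.0101), with no overlap of stressed and control samples. Starved cells differed from controls by 0.024 in knockout and -0.17 in wild-type cells, neither past the threshold. Rigi, the sensor related to MDA5, changed by -0.022 and -0.065 at oxygen 1, and Zbp1, a sensor of Z-form nucleic acid that triggers cell death, by -0.065 and -0.082. Dhx58, the regulator LGP2, changed by 0.30 and 0.34, and Eif2ak2, the RNA-activated kinase PKR that halts translation, by 0.17 and 0.12, none past the threshold.

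The antiviral effectors held 8 of the 16 calls in knockout and 6 of the 12 in wild-type cells at oxygen 1, with 7 rises and 1 fall among 13 measured members in knockout and 5 rises and 1 fall in wild-type cells. These were 53.8% and 7.69% of the 13 in knockout and 38.5% and 7.69% in wild-type cells. Of all genes, 21.4% rose and 18.3% fell in knockout and 20.5% and 18.1% in wild-type cells. Isg20, an exonuclease that degrades RNA, read 2.74, 2.68 and 2.42 in knockout and 2.31, 3.01 and 2.47 in wild-type cells at oxygen 1. Starved cells read 1.78, 1.44 and 1.28 in the knockout and 0.84, 1.51 and 1.45 in the wild type, against 1.56, 1.49 and 1.17 in knockout and 1.35, 1.81 and 1.68 in wild-type controls. All samples at oxygen 1 lay above all starved and control samples. The rise was 1.21 ± 0.22 in knockout (2.31-fold, adjusted p = 0.000401) and 0.98 ± 0.22 in wild-type cells (1.98-fold, 0.00217). It passed in every alternative run for these 2 comparisons, among them the leaving out of each sample, and its second probe gave 1.09 and 1.08.

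Rsad2 encodes viperin, which makes a chain-terminating nucleotide, and its neighbour Cmpk2 encodes a mitochondrial nucleotide kinase that supplies the substrate. Rsad2 read 4.95, 4.91 and 4.54 in knockout and 4.55, 4.96 and 5.08 in wild-type cells at oxygen 1. Starved cells read 4.43, 3.64 and 3.36 in the knockout and 3.23, 3.56 and 3.62 in the wild type, against 3.89, 3.84 and 3.40 in knockout and 3.59, 4.30 and 4.24 in wild-type controls. The oxygen 1 samples stood above all others, and replicate 1 of the starved knockout cells stood above the other starved samples. Rsad2 rose by 1.09 ± 0.26 in knockout (2.13-fold, adjusted p = 0.00395) and 0.82 ± 0.26 in wild-type cells (1.77-fold, 0.0224). The wild-type call did not survive leaving out oxygen 1 sample 2 (0.77, adjusted p = 0.0646), oxygen 1 sample 3 (0.71, 0.0767) or control 1 (0.59, 0.105).
Cmpk2 read 2.02, 2.12 and 2.17 in knockout cells at oxygen 1 against 1.09, 1.07 and 0.89 in knockout controls, and 2.01, 2.24 and 2.53 in wild-type cells at oxygen 1 against 1.06, 1.68 and 1.60 in wild-type controls. The groups did not overlap in either genotype. The rise was 1.09 ± 0.18 in knockout (adjusted p = 0.000187) and 0.81 ± 0.18 in wild-type cells (0.0022). The second, dimmer probe of Cmpk2 gave smaller rises, of 0.43 and 0.44. In starved cells Cmpk2 changed by 0.25 in knockout and -0.35 in wild-type cells, neither past the threshold.

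**Figure D4:**
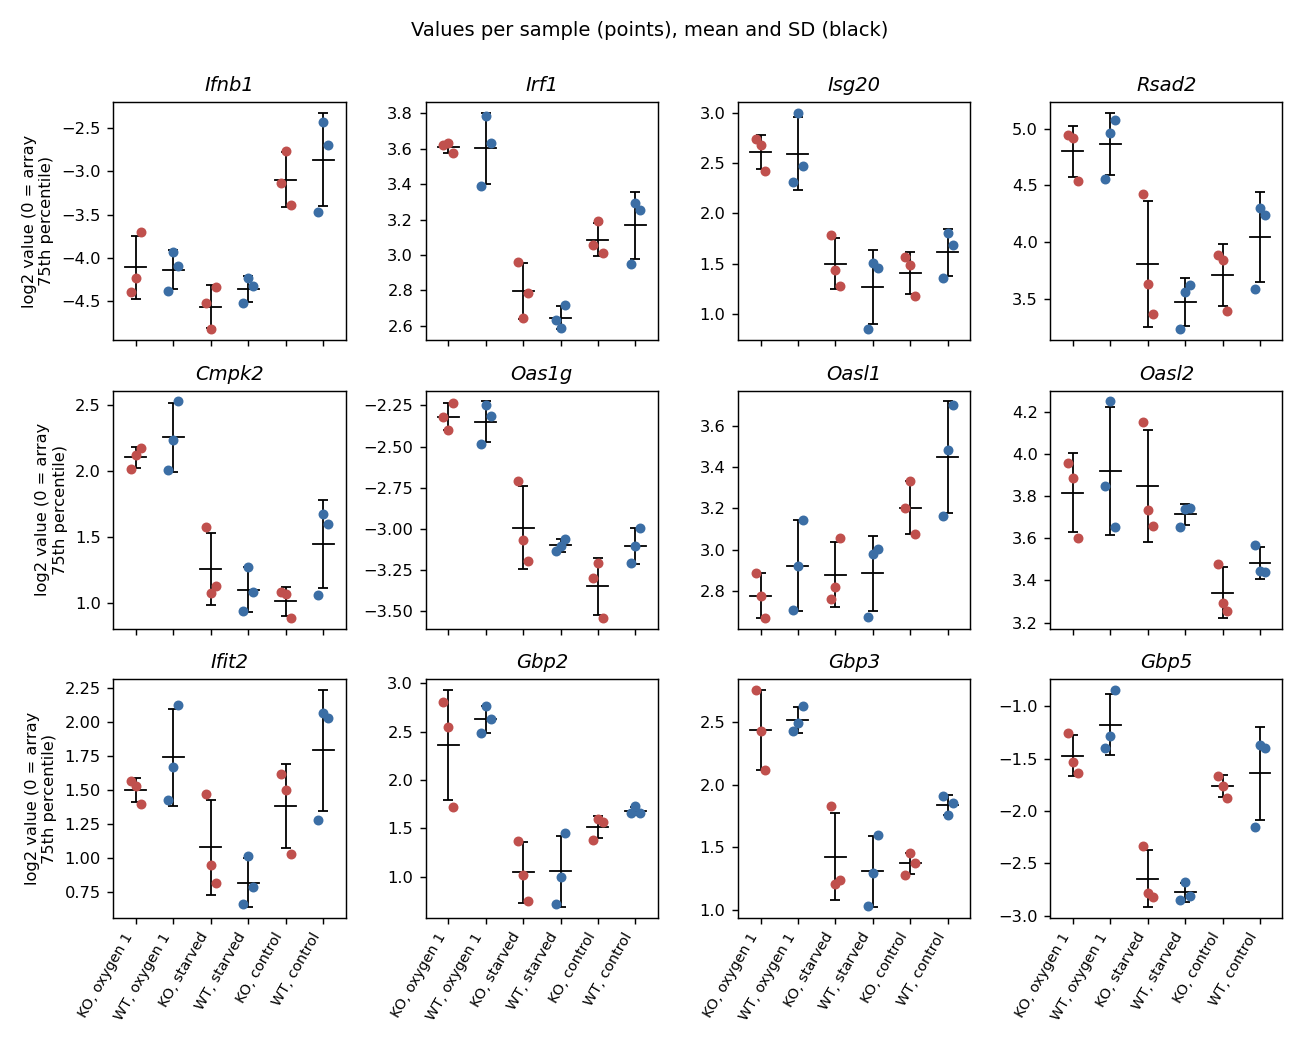
Log2 values of 12 members in each sample (points; red knockout, blue wild type), with the mean and SD of the 3 samples of a group in black. Each panel has its own vertical axis; Isg20, Rsad2, Cmpk2, Oas1g, Gbp2 and Gbp3 are highest at oxygen 1, Gbp5 is lowest when starved and Ifnb1 is highest in the controls.

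The oligoadenylate synthetases, which switch on the RNA-degrading enzyme RNase L, and their relatives did not move as 1 group. Oas1g read -2.32, -2.40 and -2.24 in knockout cells at oxygen 1 against -3.30, -3.21 and -3.54 in knockout controls. Wild-type cells read -2.48, -2.25 and -2.31 at oxygen 1 against -3.21, -3.11 and -2.99 in controls. The rise was 1.03 ± 0.13 in knockout (2.04-fold, adjusted p = 1.21e-05) and 0.76 ± 0.13 in wild-type cells (1.69-fold, 0.000231). Oas1a, whose promoter stretch printed above matches that of Oas1g, changed by 0.15 in knockout and 0.039 in wild-type cells, neither past the threshold. Its second probe changed by -0.10 and -0.076. Upstream of the printed stretch, the Oas1a promoter also held a GAS motif, and that of Oas1g held none. Oas2 changed by 0.23 and 0.21 and Oas3 by 0.32 and 0.32, without passing; 1 wild-type sample at oxygen 1 and 1 wild-type control had no value for Oas2. Probe sequences were not used here, so signal shared between these paralogs cannot be told apart from each gene's own.
Oasl2, an oligoadenylate synthetase-like protein, read 3.96, 3.89 and 3.60 in knockout cells at oxygen 1, 4.15, 3.73 and 3.66 in starved knockout cells and 3.48, 3.29 and 3.25 in knockout controls. Wild-type cells read 3.85, 4.25 and 3.65 at oxygen 1, 3.66, 3.74 and 3.75 when starved and 3.57, 3.44 and 3.44 in controls. Both stressed groups lay above the controls in each genotype. Oasl2 rose at oxygen 1 by 0.47 ± 0.16 in knockout (adjusted p = 0.0242) and 0.43 ± 0.16 in wild-type cells (0.0383), and in starved knockout cells by 0.51 ± 0.16 (0.0427). The starved call did not survive leaving out knockout control 1 (0.57, adjusted p = 0.0523), 2 (0.48, 0.121) or 3 (0.46, 0.126), starved sample 1 (0.35, 0.187) or 2 (0.56, 0.0606), or the 3 samples that stood apart.

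Oasl1, which in mice holds back translation of the Irf7 message, ran the other way. It read 2.89, 2.78 and 2.67 in knockout and 2.71, 2.92 and 3.14 in wild-type cells at oxygen 1. Starved cells read 2.76, 2.82 and 3.06 in the knockout and 2.67, 2.98 and 3.00 in the wild type, against 3.20, 3.33 and 3.08 in knockout and 3.16, 3.48 and 3.70 in wild-type controls. The stressed samples lay below the controls of their genotype, by a narrow gap in some cases. The change at oxygen 1 was -0.43 ± 0.15 in knockout (adjusted p = 0.0361) and -0.53 ± 0.15 in wild-type cells (0.0126), and when starved it was -0.56 ± 0.15 in wild-type cells (0.0226) and -0.32 in knockout cells, not past the threshold. The knockout call at oxygen 1 was lost when oxygen 1 sample 2 (-0.42, adjusted p = 0.0797) or 3 (-0.37, 0.111) or knockout control 1 (-0.43, 0.0780) or 2 (-0.36, 0.125) was left out. It was also lost with slide as a fixed block (-0.34, 0.0613) and with no filter on dim probes (-0.43, 0.0681). The wild-type call at oxygen 1 was lost when oxygen 1 sample 1 (-0.42, 0.0639) or control 3 (-0.40, 0.0699) was. The starved wild-type call was lost when control 2 (-0.55, 0.0725), control 3 (-0.44, 0.120) or starved sample 1 (-0.46, 0.118) was.

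Ifit1, Ifit2 and Ifit3 encode proteins that bind viral RNA or form complexes around it. Ifit2 read 1.47, 0.95 and 0.82 in starved knockout cells against 1.62, 1.5 and 1.03 in knockout controls, and 0.66, 1.01 and 0.79 in starved wild-type cells against 1.28, 2.06 and 2.03 in wild-type controls. The knockout groups overlapped and the wild-type groups did not. The change was -0.30 in knockout cells, not past the threshold, and -0.97 ± 0.24 in wild-type cells (adjusted p = 0.0138). The wild-type call did not survive leaving out control 2 (-0.83, 0.0694), control 3 (-0.85, 0.0684) or starved sample 1 (-0.89, 0.0632). At oxygen 1, Ifit2 changed by 0.12 in knockout and -0.051 in wild-type cells. Ifit1 rose by 0.52 ± 0.16 at oxygen 1 in knockout cells (0.0191) and Ifit3 by 0.45 ± 0.16 (0.0374). Bst2, the tetherin that holds budding virus at the cell surface, changed by -0.15 in knockout and -0.13 in wild-type cells at oxygen 1 and passed in no comparison with controls.

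None of the 3 genes of the ISG15 system and its brakes passed in any of the 4 stress comparisons by limma, and none had an unadjusted p under 0.05 at oxygen 1. Isg15, a ubiquitin-like protein attached to other proteins during the response, changed by 0.26 in knockout and 0.15 in wild-type cells at oxygen 1, with values of 5.49 to 6.43 over all 18 samples. Usp18, which removes ISG15 and blocks the interferon receptor, changed by 0.013 and -0.12. Trim30a, which restrains Toll-like receptor signalling in mice, changed by 0.34 and 0.077.

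Of the 7 interferon-inducible GTPases, 2 guanylate-binding proteins rose at oxygen 1 and another fell under starvation. The 2 were 28.6% of the 7 in each genotype, against 21.4% of all genes that rose in knockout and 20.5% in wild-type cells. The 1 that fell was 14.3%, against 6.38% and 6.02% of all genes. Gbp2 read 2.81, 2.55 and 1.72 in knockout and 2.48, 2.76 and 2.64 in wild-type cells at oxygen 1. Starved cells read 1.37, 1.02 and 0.75 in the knockout and 0.73, 1.00 and 1.45 in the wild type, against 1.38, 1.60 and 1.56 in knockout and 1.66, 1.73 and 1.66 in wild-type controls. Replicate 3 of the knockout cells at oxygen 1 lay just above the controls of its genotype, well below the other oxygen 1 samples. The rise was 0.84 ± 0.24 in knockout (1.79-fold, adjusted p = 0.0117) and 0.94 ± 0.24 in wild-type cells (1.93-fold, 0.0062). In starved cells Gbp2 changed by -0.47 and -0.63, neither past the threshold.
Gbp3 read 2.75, 2.43 and 2.11 in knockout cells at oxygen 1 against 1.28, 1.45 and 1.38 in knockout controls, and 2.42, 2.49 and 2.63 in wild-type cells at oxygen 1 against 1.91, 1.75 and 1.85 in wild-type controls. The groups did not overlap. It rose by 1.06 ± 0.18 in knockout (2.08-fold, adjusted p = 0.000324) and 0.68 ± 0.18 in wild-type cells (1.60-fold, 0.00924). In starved cells it changed by 0.055 and -0.53, neither past the threshold.
Gbp5, which promotes inflammasome assembly, read -2.33, -2.78 and -2.82 in starved knockout cells against -1.66, -1.76 and -1.87 in knockout controls. Starved wild-type cells read -2.85, -2.67 and -2.81 against -2.15, -1.37 and -1.40 in wild-type controls. The starved samples lay below the controls in both genotypes. The change was -0.88 ± 0.20 in knockout (adjusted p = 0.00928) and -1.14 ± 0.20 in wild-type cells (0.0016). Under the normexp background correction neither passed (0.346 and 0.261). The immunity-related GTPases Igtp, Irgm1, Iigp1 and Ifi47 passed in no stress comparison, with changes between -0.36 and 0.077 at oxygen 1 and between -0.47 and 0.053 when starved.

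Among the 6 remaining members Rtp4, a chaperone-like transport protein, rose by 0.44 ± 0.11 in knockout (adjusted p = 0.00396) and 0.37 ± 0.11 in wild-type cells (0.012) at oxygen 1. It read 6.07, 5.91 and 5.78 in the knockout and 5.89, 5.89 and 5.96 in the wild type, against 5.52, 5.37 and 5.55 in knockout and 5.47, 5.49 and 5.67 in wild-type controls. Parp9, an ADP-ribosyltransferase family member, rose by 0.35 ± 0.13 in knockout cells (0.0366). Parp14, Ifi35, Ifi44 and Xaf1 did not pass, with changes at oxygen 1 between -0.060 and 0.55. In all, 21 of 39 members passed in none of the 4 comparisons of a stress with its control, among them Isg15, Usp18, Irf7, Rigi, Oas1a, Oas2, Oas3 and Stat2. The share of all genes that passed in none of the 4 was not counted, so this number is not read as a trait of the members. Of all genes, 39.7% passed in knockout and 38.6% in wild-type cells at oxygen 1, and 13.5% and 12.5% when starved.

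The promoter motifs can be set beside these calls as a description. Of the 10 members that rose at oxygen 1 in both genotypes, 9 had a promoter entry and 5 of these held the ISRE core (Gbp2, Gbp3, Ifih1, Oas1g and Rsad2). Of the 21 members that passed in no stress comparison, 15 had an entry and 10 held the core. The hypoxia response element core was in 2 of the 9 (Isg20 and Oasl2) and in 1 of the 15 (Igtp). Ifnb1 and Oasl1, which fell in both genotypes at oxygen 1, held none of these motifs in the window.

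Low oxygen was also set directly against starvation, and the guanylate-binding proteins Gbp2, Gbp3 and Gbp5 differed by 1.00 to 1.60 in both genotypes. In knockout cells 12 of 39 members were higher at oxygen 1 than when starved (30.8%) and 1 was lower (2.56%), against 19.2% and 17.9% of all genes tested. In wild-type cells 18 were higher (46.2%) and 1 was lower (2.56%), against 19.8% and 18.3% of all genes. The median member differed by 0.25 in knockout and 0.40 in wild-type cells. With slide as a fixed block the counts were 12 and 1 in knockout cells (30.8% and 2.56%), against 21.1% and 19.9% of all genes. They were 17 and 0 in wild-type cells (43.6% higher), against 20.6% and 20.1%. Within slides the median member differed by -0.067 and 0.36 in knockout and by 0.66 in wild-type cells. Without the 3 samples that stood apart the counts were 14 and 1 in knockout cells (35.9% and 2.56%), against 21.0% and 20.0% of all genes. They were 21 and 1 in wild-type cells (53.8% and 2.56%), against 21.0% and 22.1%. Gbp2 differed by 1.31 ± 0.24 in knockout (2.48-fold, adjusted p = 0.000598) and 1.57 ± 0.24 in wild-type cells (2.97-fold, 0.00013). Gbp5 read -1.26, -1.53 and -1.64 in knockout and -1.40, -1.28 and -0.85 in wild-type cells at oxygen 1, above all the starved samples given before. It differed by 1.17 ± 0.20 in knockout (0.000391) and 1.60 ± 0.20 in wild-type cells (3.03-fold, 2.45e-05). Gbp3, Rsad2, Isg20, Cmpk2, Irf1 and Oas1g were also higher at oxygen 1 in both genotypes, by 0.68 to 1.11 in knockout and 0.75 to 1.39 in wild-type cells. Bst2 was the member that was lower, at 5.90, 5.79 and 5.72 in knockout cells at oxygen 1 against 6.25, 6.06 and 6.21 when starved, and at 5.79, 5.88 and 5.94 in wild-type cells at oxygen 1 against 6.10, 6.26 and 6.11 when starved. The groups did not overlap, and the difference was -0.37 ± 0.093 in knockout (0.00649) and -0.29 ± 0.093 in wild-type cells (0.0245). The wild-type call did not survive leaving out oxygen 1 sample 1 (-0.25, 0.0915) or starved sample 2 (-0.24, 0.106).

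No member passed the threshold between knockout and wild-type cells by limma. In each of the 3 conditions 0 of 39 members passed, against 0% of all genes tested in each. At an unadjusted p under 0.05 there were 0 members at oxygen 1 (1.70% of all genes), 1 when starved (2.56%, against 1.89% of all genes) and 2 in controls (5.13%, against 1.39%). Averaged over the conditions 0 of 39 passed, against 0.024% (5 genes) of all genes tested, and 0 members had an unadjusted p under 0.05, against 2.44% of all genes. In all these comparisons the 95% interval of every member lay within a log2 difference of 1 in either direction. The median member's half-width was 0.34 in each condition. These intervals were not adjusted for the 20813 genes tested, so differences well above that size could also fail to pass. The largest difference at oxygen 1 was that of Irf7, at 2.0, 1.40 and 1.21 in knockout against 1.68, 2.45 and 1.83 in wild-type cells (-0.45, 95% interval -0.94 to 0.042). In starved cells it was that of Rsad2 (0.34, -0.22 to 0.90), and in controls that of Gbp3 (-0.47, -0.86 to -0.073). Gbp3 in controls did not overlap between the genotypes and had an adjusted p of 1.00. The macrophage marker Lyz2, which is not a member, differed by -1.0575 ± 0.1625 in starved cells and did not pass (limma adjusted p = 0.122). Averaged over conditions the largest difference of a member was that of Gbp2 (-0.15, -0.45 to 0.15). The genotype labels of these comparisons were not checked by the Egln3 signal, as given before.

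**Figure D5:**
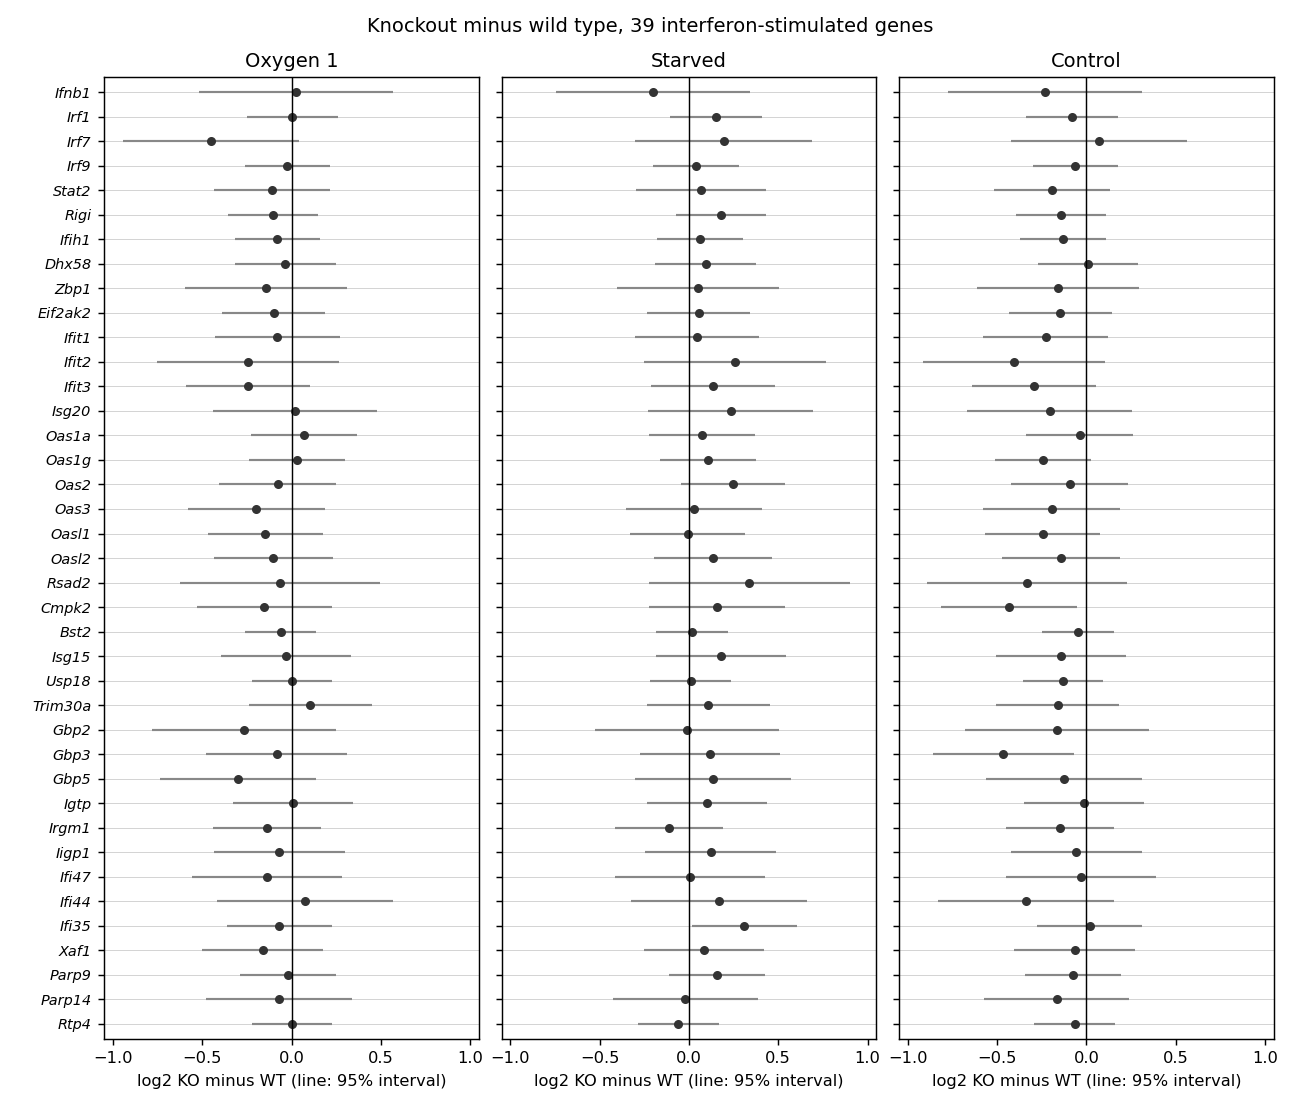
Knockout minus wild type for the 39 members at oxygen 1, when starved and in controls, as log2 differences (points) with 95% intervals (lines). All intervals lie between -1 and 1, and most points lie left of 0 in controls and right of 0 when starved.

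The responses to stress were tested for a difference between genotypes. For low oxygen 0 of 39 members passed, against 0% of all genes tested, with 0 members and 1.11% of all genes at an unadjusted p under 0.05. For starvation 0 of 39 passed, also against 0%, with 2 members (5.13%) and 1.04% of all genes at an unadjusted p under 0.05. The starvation response was above 0 in the knockout relative to the wild type for 39 of 39 members, with a median of 0.23 and single values up to 0.67 ± 0.37 for Rsad2, 0.67 ± 0.34 for Ifit2 and 0.59 ± 0.25 for Cmpk2 (limma adjusted p = 1.00 in each). Members moved together from sample to sample, so their number does not add independent evidence. Replicate 1 of the starved knockout cells held the highest value of its group for 33 of 38 members with 3 values. Starved wild-type sample 1 held the lowest for 32 of 39, starved knockout sample 3 for 22 of 38, knockout control 3 for 26 of 39 and wild-type control 1 for 31 of 38. At oxygen 1, replicate 3 of the knockout samples was lowest for 28 of 39 and replicate 1 of the wild-type samples for 32 of 38. Replicate 3 was thus most often the lowest in all 3 knockout groups, and replicate 1 in all 3 wild-type groups. The median member deviated from its group mean by 0.17 in that starved knockout sample and by -0.14 in that starved wild-type sample, where the median of all genes deviated by 0.010 and 0.022. Leaving out single samples took the median starvation difference between genotypes to values between 0.16 and 0.34.

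Second probes gave a check within the array for 10 members. Both probes changed in the same direction for 6 of 10 in knockout and 7 of 10 in wild-type cells at oxygen 1, and for 6 of 10 in each genotype when starved. They lay within 0.5 of each other for 8 and 9 of 10 at oxygen 1 in knockout and wild-type cells. Cmpk2, Ifih1, Isg15 and Isg20 were higher by both probes at oxygen 1 in both genotypes. The widest gap was that of Xaf1, a binding partner of the caspase inhibitor XIAP. Its brighter probe changed by 0.16 in knockout and 0.25 in wild-type cells at oxygen 1, and its dimmer probe by 1.44 and 1.36.

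The wider interferon pathway was described by 115 further genes, of which 106 were tested. At oxygen 1, 33 rose (31.1%) and 8 fell (7.55%) in knockout cells and 28 rose (26.4%) and 14 fell (13.2%) in wild-type cells, against the 21.4% and 18.3% and the 20.5% and 18.1% of all genes given before. When starved, 7 rose (6.60%) and 4 fell (3.77%) in knockout cells, against 7.13% and 6.38% of all genes. In starved wild-type cells 4 rose (3.77%) and 8 fell (7.55%), against 6.49% and 6.02%, so the starved counts lay near or below those of all genes. Their median changed by 0.071 in knockout and 0.10 in wild-type cells at oxygen 1 and by 0.062 and -0.041 when starved. Il15, an interferon-induced cytokine that sustains NK cells, averaged 0.22 ± 0.090 in knockout cells at oxygen 1 against -1.71 ± 0.082 in knockout controls, and 0.17 ± 0.18 in wild-type cells at oxygen 1 against -1.57 ± 0.081 in wild-type controls (SD, n = 3 each). It rose by 1.93 in knockout (limma adjusted p = 1.97e-09) and 1.74 in wild-type cells (limma adjusted p = 6.37e-09), more than any of the 39 members. Other genes of the interferon list also rose at oxygen 1, unlike Ifnb1. Ifna11 rose by 1.4704 in knockout (limma adjusted p = 0.0153) and 1.1964 in wild-type cells (0.0438). Ifnk rose by 1.3046 (0.00709) and 1.358 (0.00584), with its probe well above background in 6 of 18 samples. Of the 11 tested genes of that list, 3 rose (27.3%) and 1 fell (9.09%) in knockout cells, against 21.4% and 18.3% of all genes. In wild-type cells 3 rose (27.3%) and 2 fell (18.2%), near the 20.5% and 18.1% of all genes. Ifi27, a mitochondrial interferon-induced protein, rose by 1.73 and 1.60. The adaptors split: Traf6, a ubiquitin ligase downstream of Toll-like receptors, rose by 1.46 in knockout and 1.51 in wild-type cells, Sting1, the adaptor of DNA sensing, by 0.77 and 0.81, and Mavs, the adaptor through which Rigi and Ifih1 signal, fell by 1.04 and 1.04. The brakes Socs3 and Tnfaip3 rose by 1.09 and 1.10 in knockout and by 0.91 and 1.00 in wild-type cells. Of the 8 negative regulators tested, 5 rose and 1 fell in knockout cells (62.5% and 12.5%), against 21.4% and 18.3% of all genes. In wild-type cells 4 rose and 1 fell (50% and 12.5%), against 20.5% and 18.1%. The wild-type fall was that of Ptpn6 (-0.75, limma adjusted p = 0.00111). Of 11 receptor and signalling genes, 5 rose in knockout (45.5%) and 3 in wild-type cells (27.3%), against 21.4% and 20.5% of all genes. None fell, against 18.3% and 18.1%. Jak1 rose by 0.76 and 0.84 and Ifngr1 by 0.51 and 0.45.

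In starved cells the genes of this wider list that changed most were Gbp4 and Cxcl10, both classical targets of interferon gamma and type I interferon. Cxcl10, a chemokine for activated T cells, averaged 1.29 ± 0.28 in starved knockout cells against 2.31 ± 0.081 in knockout controls, and 1.04 ± 0.28 in starved wild-type cells against 2.57 ± 0.43 in wild-type controls (SD, n = 3 each). It fell by 1.02 in knockout (limma adjusted p = 0.00336) and by 1.52 in wild-type cells (limma adjusted p = 0.000159). Gbp4 fell by 1.06 and 1.57, while the chemokine Ccl12 rose by 0.89 and 0.83. Ikbke, a kinase that activates interferon regulatory factors, fell by 0.82 and 0.78. The interferon gene Ifna13 rose by 0.6015 in knockout (limma adjusted p = 0.00502) and 0.6304 in wild-type cells (0.0038). Set against starvation, Gbp4 at oxygen 1 was higher by 2.19 in knockout and 2.72 in wild-type cells.

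Markers of other cells were read in the same samples. Of 10 probed neutrophil markers 6 (Camp, Cebpe, Elane, Mpo, S100a8 and S100a9) were above background in all samples and Retnlg in none. The sum of the linear signals of the 9 tested, in units of the array's 75th percentile, lay between 5.42 and 9.98 in knockout and 6.46 and 10.1 in wild-type cells at oxygen 1. It lay between 5.75 and 9.19 in starved knockout and 7.28 and 9.40 in starved wild-type cells, against 9.79 to 15.9 in knockout and 12.1 to 18.9 in wild-type controls. It was thus lower in stressed than in control samples, with a small overlap in knockout cells at oxygen 1. Single markers ran both ways at oxygen 1. Ngp changed by -3.44 and -3.78 and S100a9 by -1.67 and -1.50 in knockout and wild-type cells. Cebpe rose by 1.35 and 1.51 and Cxcr2 by 1.17 and 0.92, but Cxcr2 averaged only -5.75 and -6.13 there, near the background. Of the 9, 2 rose in each genotype (22.2%), against 21.4% and 20.5% of all genes. In knockout cells 4 fell (44.4%) and in wild-type cells 5 (55.6%), against 18.3% and 18.1%. When starved 0 rose, against 7.13% and 6.49% of all genes. Again 4 and 5 fell, against 6.38% and 6.02%. The part of these markers in the changes of the interferon-stimulated genes was not tested. Plasmacytoid dendritic cells are specialised producers of type I interferon, and 7 of their 10 markers were above background in all samples. The summed signal of the 8 tested overlapped between all groups, from 84.9 to 111 in knockout and 92.5 to 112 in wild-type cells at oxygen 1, 81.3 to 93.2 and 86.3 to 93.6 when starved, and 81.8 to 99.96 and 71.2 to 112 in controls. Single markers of these cells moved at oxygen 1 all the same, with Spib at -2.75 in knockout and -2.45 in wild-type cells, Il3ra at -1.74 and -1.81, Ly6d at -2.12 and -2.45, and Ccr9 at 0.96 and 1.10, all past the threshold. In all 4 of 8 passed in knockout (50%) and 5 of 8 in wild-type cells (62.5%), against 39.7% and 38.6% of all genes. The 5 tested T and NK cell markers summed to between 3.06 and 4.76 over all samples. The 8 macrophage markers summed to 336 to 375 in knockout and 375 to 407 in wild-type cells at oxygen 1, 282 to 317 and 338 to 372 when starved, and 267 to 301 and 318 to 364 in controls, lower in knockout than in wild-type cells in each condition. Csf1r rose by 0.98 and 1.06 at oxygen 1, and Mertk fell by 2.19 and 1.81. Lyz2, the macrophage lysozyme, fell by 1.00 and 0.98 at oxygen 1 and was lower in knockout than in wild-type cells by -1.03 ± 0.094 averaged over the conditions (limma adjusted p = 0.000449). Averaged in the same way, the other 7 macrophage markers differed between genotypes by -0.11 to 0.031, none past the threshold. The part of these 3 lists in the changes was not tested either.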

How the data were processed

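Single-channel Agilent arrays were read from 18 samples on 20 arrays; the 2 samples hybridised to 2 arrays were averaged. Per the file headers, the deposited spot intensity had been background-subtracted and detrended within each array by Agilent Feature Extraction 10.7.3.1, on a design built on mm9, with no normalization between arrays. The authors' deposited value table holds log2 values, made with limma per the submitters' processing notes, which give no version. Here, values were log2 intensities minus each array's 75th percentile, after leaving out spots that the scanner software flagged as non-uniform or as outliers. Of 39429 probes, 26055 (66.1%) received a symbol through RefSeq accessions. A probe was tested when well above background in at least 3 samples with at least 2 values in every group, and the brightest probe stood for its gene. Missing values (0.117%) were left out of the fit.

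A model of 6 group means over all 18 samples was fitted with limma 3.58.1 in R 4.3.3 (residual degrees of freedom 12, prior 2.48). Tests were two-sided, with Benjamini-Hochberg adjustment across all 20813 genes within a comparison, and an adjusted p under 0.05 was called. The error after ± is the fit's standard error unless SD is named, and intervals cover 95%. The fit was tested on simulated data. Alternatives covered quantile normalization, normexp background correction, the filter on dim probes, the probe rule, the authors' table, slide and replicate number as blocks, and the leaving out of samples. The files hold no mean spot signal, so normexp (offset 50) used the median signal in its place. The members, gene lists and tests were chosen with earlier results of these data known. The rule for members given in full took the up to 5 largest rises and 5 largest falls past the threshold in a comparison. Where fewer than 3 passed, it took the 3 largest differences. Some called values at low oxygen were given outside this rule. They were those of Irf1, Ifih1, Oasl2 and Rtp4, of Ifit1, Ifit3, Parp9 and Gbp2 in knockout cells, and of Gbp3 in wild-type cells. The 3 largest changes past the threshold of each pathway list could be named. Over all genes, the deviations of same-numbered samples of a genotype correlated between -0.085 and 0.29 (median 0.07, against -0.054 for different numbers); since not every pair lay over 0.1 and the sources used here tie no number to a mouse or batch, numbers were not taken to pair samples. Promoters were read from a RefSeq table of GRCm38.p6; no array coordinates were used. Motifs were searched with Python 3.11.15.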

Additional observations from a re-analysis of the deposited data

How the results depend on the processing

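Under the alternatives that left out no single sample, 650 of 673 named values kept their direction and their side of the threshold and 23 lost the call. Under the leaving out of single samples 360 of 384 kept both, 23 lost the call and 1 turned, the difference of Gbp2 between genotypes at oxygen 1, which ran from -0.49 to 0.052. These totals include the differences between genotypes and their interactions, which passed nowhere and so had no call to lose. All losses thus fell on the called values. The totals cover only the values chosen by the rule for members given in full. Called values given outside it, such as those of Oasl2 at oxygen 1, were not followed. Oasl2 in starved knockout cells lost its call in 9 of 19 alternatives. Oasl1 at oxygen 1 in knockout cells and Bst2 at oxygen 1 against starvation in wild-type cells each lost theirs in 6 of 19. Normexp background correction of the median signal gave 8 members (7 up, 1 down) at oxygen 1 in knockout cells. In wild-type cells it gave 7 (6 up, 1 down). When starved it gave 0 in knockout cells by limma, against 2.5% of all genes that rose and 1.88% that fell. In starved wild-type cells it gave 3, all falls (7.69%), against 3.37% of all genes that rose and 2.0% that fell. The cause of these counts was not tested. With only the groups of the comparison in the fit, 2 members were called in starved wild-type cells, where fewer samples estimate the spread. Counts without single samples ran from 10 to 14 in knockout and 10 to 13 in wild-type cells at oxygen 1, from 2 to 4 and 2 to 9 when starved, and from 11 to 15 and 14 to 22 for oxygen 1 against starvation. The shares of all genes in that smaller fit and without single samples are not given here. Comparisons of genotypes and their interactions gave 0 members under every alternative run. With the replicate number as a block, 18 members were called at oxygen 1 in knockout and 16 in wild-type cells, 5 (3 up, 2 down) and 6 when starved, 14 and 20 for oxygen 1 against starvation and 0 between genotypes. The replicate numbers were not taken to pair samples, since over all genes only 8 of 18 same-numbered pairs within a genotype correlated above 0.1 in their deviations from the group means. Among the members, the same number was most often the lowest in all 3 groups of a genotype. Under normexp the calls of Ifnb1, Gbp5 and Oas1g were lost in 4, 2 and 1 comparisons of a stress with controls, and so were those of Oasl2 in starved knockout cells and of Bst2 at oxygen 1 against starvation in both genotypes.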
